A study of Mus musculus with 8 samples.

Results

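The 8 genes described here, Hmgcs1, Idi1, Fdps, Fdft1, Sqle, Lss, Cyp51 and Insig1, were chosen by name from the 23997 genes of the deposited expression table as sterol synthesis genes driven by the transcription factor SREBP2. Their levels were compared between Bcl11b-deficient and Bcl11b-sufficient regulatory T (Treg) cells, and 8 of 8 were measured above the filter on low values. RNA sequencing was done on CD4+YFP+ cells sorted from spleen and draining lymph nodes of C57BL/6 mice. Deficient cells had the genotype Bcl11b f/f Foxp3-YFP-Cre/+, in which both copies of the zinc finger gene Bcl11b are floxed. Sufficient cells had the genotype Bcl11b f/+ Foxp3-YFP-Cre/+, so they too carried 1 floxed copy and the same Cre. Cre is driven by Foxp3, the lineage-defining transcription factor of Treg cells, from 1 of the Foxp3 alleles. The labels give no age, treatment or pooling of animals. Each group had 4 deposited columns. In the deficient group, columns 1 and 3 were near-identical, as were columns 2 and 4; in the sufficient group, columns 1 and 3 were. Each such pair was averaged and counted as 1 sample, because within a pair the spread over genes was only 1.19 to 1.20 times what read sampling gives. In the 9 other pairs of the same group it was 1.88 to 2.91 times. That left 2 deficient libraries (replicates 1+3 and 2+4) and 3 sufficient libraries (replicates 1+3, 2 and 4). No label says that these come from different animals, so p-values here cover the spread between libraries, which could be technical.

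Cholesterol is built from acetyl units through mevalonate, isoprenoid and squalene intermediates, and the isoprenoids also feed protein prenylation. When sterols run low in the endoplasmic reticulum, the escort protein Scap carries SREBP2 to the Golgi, where it is cut and released to switch on nearly every enzyme of the route. Insig1 holds Scap back and is itself switched on by SREBP, which closes a feedback loop. In mouse Treg cells, mTORC1 signalling is known to promote this route and suppressive function depends on it. None of the 8 genes encodes a protein of sterol uptake, so uptake was read from other genes.

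Bcl11b itself measured 24.4 and 19.0 FPKM (fragments per kilobase of transcript, scaled to library size) in the deficient libraries, against 42.4, 46.5 and 39.1 FPKM in the sufficient ones. Its level in deficient cells was 50.8% of that in sufficient cells. The T cell markers Cd3e (256 and 250 FPKM in the deficient, 277, 259 and 298 FPKM in the sufficient group) and Foxp3 (153 and 153 FPKM against 198, 198 and 165 FPKM) were high in every library. The summed level of 18 macrophage and monocyte markers was 756 and 396 FPKM in deficient libraries, against 28.7, 104 and 92.7 FPKM in sufficient libraries, with 8 of 16 tested called higher and 0 lower; Marco was listed at 0 in sufficient libraries 2 and 4. The sum of 10 NK markers was 369 and 419 FPKM against 12.4, 31.5 and 23.7 FPKM. Of 8 tested, 6 were called higher and 0 lower, and Klra4 was listed at 0 in 4 libraries and Ncr1 in 2. Fcer1g made up most of the NK sum in deficient libraries, at 247 and 283 FPKM, against 0.98, 6.93 and 6.41 FPKM in sufficient ones. Klrd1, Gzma, Klrk1, Tyrobp and Cd160 were called higher too, while Klrb1c and Eomes were not (log2 fold changes 0.52 and 0.04). Tyrobp was at 64.9 and 38.6 FPKM in deficient libraries 1+3 and 2+4, the order of the macrophage sum. Fcer1g, Klrd1, Gzma, Klrk1 and Cd160 were higher in 2+4. The NK sum does not show which cells hold these transcripts, and that was not tested. The sum of 13 Treg markers was 1030 and 1070 FPKM against 2140, 2050 and 2070 FPKM (0 of 13 called higher, 8 lower). Of all genes tested, 1.93% were called higher and 0.697% lower. Itgam, Cd14, Mertk and Cd163 of the macrophage markers averaged under 1 FPKM in sufficient libraries, as did Klrd1 and Klrk1 of the NK markers. They passed the filter on low values only through the deficient group, so they could hardly have been called lower. Erythroid marker sums were 20 and 210 FPKM against 0.599, 118 and 25.3 FPKM. Neutrophil marker sums were 7.43 and 38.3 FPKM against 3.75, 42.9 and 6.37 FPKM. Both varied within each group, and 0 of their tested genes were called. The part of these marker differences in the levels below was not tested. In bulk samples, fewer cells of a type and less RNA per cell cannot be told apart.

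None of the 8 cholesterol synthesis genes passed the test between deficient and sufficient libraries. Insig1, the feedback inhibitor, had the largest difference in size and stood at 59.5% of the sufficient level. Lss, which closes squalene epoxide into lanosterol, stood at 140% of the sufficient level. The other 6 lay between 80.8% and 109%. With limma and Benjamini-Hochberg adjustment over 10614 genes at a threshold of 0.05, 0 of 8 were called higher and 0 of 8 lower, while 2.63% of all genes tested were called (205 or 1.93% higher and 74 or 0.697% lower; 341 and 30 after libraries were scaled to equal totals). At an unadjusted p under 0.05 there were 4 members, against 17.8% of all genes. Deficient and sufficient libraries did not overlap for 5 members, 1 above and 4 below, and for 36.7% of all genes, 18.9% above and 17.9% below. With equal totals the groups did not overlap for Lss and Hmgcs1, both with the deficient libraries above, and overlapped for the other 6, Insig1, Fdps, Fdft1 and Sqle included. Under that scaling 44.9% of 10634 genes tested did not overlap, 39.7% above and 5.19% below. One transcript bears on those totals: the small RNA Snora61 was at 31182.5 FPKM in sufficient replicate 4, the top value of that column. The median log2 fold change on the scale of log2(FPKM + 1), deficient minus sufficient, was -0.22 over the members and -0.01 over all genes tested. Equal totals moved the median of all genes to 0.18 and that of the members to -0.03. Relative to all genes the members were at -0.21 under either scaling. Such scaling shifts all genes of a library nearly alike, so the equal values follow from the method and are no second support.

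**Figure D1:**
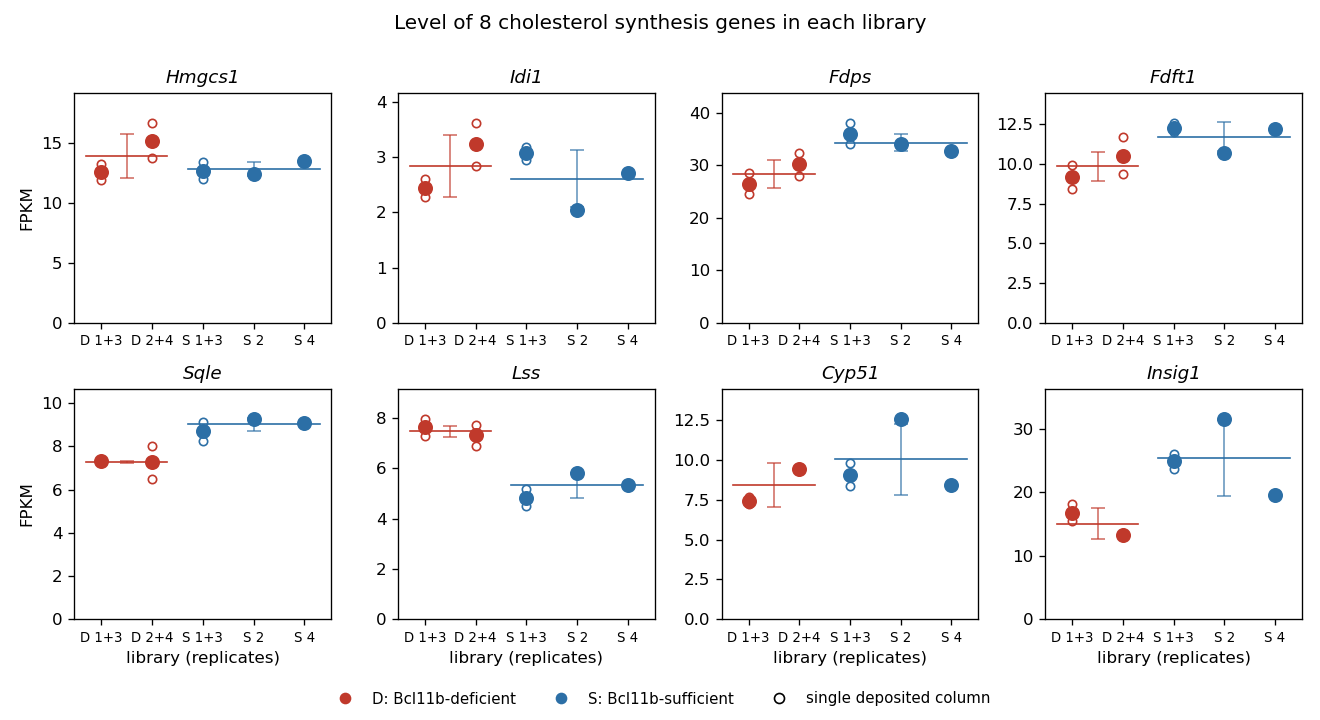
FPKM (vertical axes, from 0) of each gene in the 2 Bcl11b-deficient (D, red) and 3 Bcl11b-sufficient (S, blue) libraries; filled points are independent libraries, open points the deposited columns averaged into them, lines the group means and bars the SD. Lss is higher in each deficient library than in any sufficient one, Fdps, Fdft1, Sqle and Insig1 are lower as deposited but overlap with equal totals, and the groups overlap here for Hmgcs1, Idi1 and Cyp51.

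Insig1 (ENSMUSG00000045294.11, chromosome 5, 28071363 to 28078662, plus strand, GRCm38) binds Scap in the endoplasmic reticulum when sterols are plentiful. It measured 16.8 and 13.3 FPKM in deficient libraries, against 24.9, 31.6 and 19.6 FPKM in sufficient libraries. Both deficient libraries were below all 3 sufficient ones, of which library 4 was nearest and library 2 farthest; with equal totals Insig1 was at 18.7 and 14.4 against 23.4, 32.9 and 17.0, and sufficient library 4 lay between the deficient ones. The log2 fold change of Insig1 was -0.70 (SE 0.20, 95% interval -1.17 to -0.22, limma adjusted p = 0.141), lower than in all but 2.16% of the genes tested. For Insig1 an exact permutation test (two-sided) had p = 0.2, where 10 assignments of 5 libraries allow no p under 0.1. Single deposited columns ran from 13.2 to 18.2 FPKM in deficient and from 19.6 to 31.6 FPKM in sufficient cells. Insig1 passed only when the 8 columns were counted as 8 libraries (adjusted p = 0.0106), which counts the near-identical columns as separate samples.

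Lss (ENSMUSG00000033105.12, chromosome 10, 76531588 to 76557138, plus strand) encodes lanosterol synthase. Its level was 7.64 and 7.32 FPKM in deficient libraries and 4.84, 5.83 and 5.33 FPKM in sufficient libraries. The deficient values lay close together and above every sufficient value, with equal totals too (8.52 and 7.91 against 4.56, 6.07 and 4.61). Lss had a log2 fold change of 0.42 (SE 0.13, 95% interval 0.11 to 0.73, limma adjusted p = 0.162), with an exact permutation p = 0.1, the smallest possible here. With the 8 columns as separate libraries Lss passed (adjusted p = 0.0115). The antisense gene 4930483K19Rik overlaps 11268 bases of Lss. The library kit kept strand, while no source here states whether the counting used it, so reads of both genes may not be told apart. 4930483K19Rik was listed at 0.458 and 0.410 FPKM in deficient libraries and 0.235, 0.155 and 0.148 FPKM in sufficient ones, under Lss in each. Like Lss, it was higher in deficient libraries. Its listed level does not bound the reads shared with Lss, and its part in the level of Lss was not tested. Genes on the opposite strand also overlap the ends of Fdft1 and Cyp51 and had higher levels than 4930483K19Rik. Ctsb, which encodes the protease cathepsin B, shares 774 bases of gene span with Fdft1. Ctsb was at 115 and 73.3 FPKM in deficient libraries, against 52.0, 55.5 and 69.5 FPKM in sufficient ones, above Fdft1 in each. Akap9, a scaffold gene, shares 166 bases with Cyp51 and was at 17.9 and 16.8 FPKM against 11.3, 13.5 and 11.2 FPKM, above Cyp51 in each. Both were higher in deficient libraries, and their part in the levels of Fdft1 and Cyp51 was not tested. Annotated genes also overlap Hmgcs1 (Gm48342, opposite strand, 6190 bases), Idi1 (Gm48574, opposite strand, 323 bases) and Fdps. For Fdps these are the protein-coding gene Gm43738 (7512 bases) and the small nuclear RNA gene Gm22935 (104 bases), both on the same strand. No level was listed for any of them, so their part in the levels of these members was not tested.

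Promoters are shown here for the genes at both ends of the range and for Hmgcs1, the 1 window of the 5 searched with a match to a sterol regulatory element. RefSeq promoter windows (GRCm38.p6, 250 bases before the RefSeq start) were found for 5 of the 8 members, namely Hmgcs1, Idi1, Lss, Cyp51 and Insig1. They were searched on both strands for 3 forms of the sterol regulatory element that SREBP binds, TCACNCCAC, CACCCCAC and TCACNTGA, and for CCAAT, the box bound by the cofactor NF-Y. The first of these forms contains the second where its N is C. Capitals mark matches, and ATTGG is CCAAT on the opposite strand. The windows are chr5:28071162-28071411 (plus strand) for Insig1, chr10:76531355-76531604 (plus strand) for Lss and chr13:119690101-119690350 (plus strand) for Hmgcs1.
Insig1: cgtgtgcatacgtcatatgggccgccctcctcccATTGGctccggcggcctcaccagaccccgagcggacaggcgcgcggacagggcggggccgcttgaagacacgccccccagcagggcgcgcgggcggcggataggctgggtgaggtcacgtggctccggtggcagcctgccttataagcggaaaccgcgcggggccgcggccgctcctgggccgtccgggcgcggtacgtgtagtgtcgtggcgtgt
Lss: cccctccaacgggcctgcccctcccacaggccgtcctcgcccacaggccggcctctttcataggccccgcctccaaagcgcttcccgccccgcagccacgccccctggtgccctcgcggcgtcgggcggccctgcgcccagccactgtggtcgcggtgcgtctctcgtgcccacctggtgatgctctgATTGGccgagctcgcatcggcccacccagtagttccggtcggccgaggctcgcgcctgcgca
Hmgcs1: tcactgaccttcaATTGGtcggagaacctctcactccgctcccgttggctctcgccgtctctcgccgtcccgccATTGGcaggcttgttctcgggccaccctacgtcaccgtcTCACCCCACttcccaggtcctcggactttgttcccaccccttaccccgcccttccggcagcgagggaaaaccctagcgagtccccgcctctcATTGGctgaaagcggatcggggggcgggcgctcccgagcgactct

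Hmgcs1 held TCACCCCAC at positions -137 to -129, counted back from -1 at the last base before the start. It also held 3 CCAAT boxes. TCACNCCAC occurs in 1.05% of 32851 such windows, CACCCCAC in 2.58% and TCACNTGA in 3.45%. Any of the 3 forms occurs in 6.5% of all windows, which is the share to set beside 1 match in 5 windows. The other 4 windows held none of these 3 letter strings, which says only that they are not in these 250 bases. A CCAAT box was in 5 of the 5 windows and in 33.8% of all windows. Insig1 had 1 at -216 to -212, Lss 1 at -62 to -58, Cyp51 1 at -29 to -25 and Idi1 had 2. Both Lss, at 140% of its sufficient level, and Insig1, at 59.5%, held the box. A letter match is a description of the window and not a measured site.

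Hmgcs1 and Idi1, the earliest enzymes among the members, had log2 fold changes near 0 as deposited. Hmgcs1 (ENSMUSG00000093930.2, chromosome 13, 119690379 to 119708260), the synthase that makes HMG-CoA, measured 12.6 and 15.2 FPKM in deficient libraries, against 12.7, 12.4 and 13.5 FPKM in sufficient libraries. Deficient library 1+3 lay among the sufficient ones and library 2+4 above them. The log2 fold change of Hmgcs1 was 0.10, with a 95% interval of -0.19 to 0.39 (limma adjusted p = 0.706). With equal totals Hmgcs1 was at 14.0 and 16.5 against 11.9, 12.9 and 11.6, with no overlap and a log2 fold change of 0.30 that did not pass. Idi1 (ENSMUSG00000058258.14, chromosome 13, 8885501 to 8892451), which isomerises the basic isoprenoid unit, was the lowest member, at 2.44 and 3.23 FPKM against 3.07, 2.05 and 2.71 FPKM. The groups overlapped, and the 95% interval of its log2 fold change, -0.37 to 0.55, was wide. About 20 fragments lay behind the Idi1 value of the shallowest column, where counting alone gives an error near 22%. Neither interval shows that the gene was equal in both groups. The sign of Idi1 (log2 fold change 0.09) turned to -0.04 with quantile normalization.

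The middle enzymes were lower in both deficient libraries than in any sufficient one as deposited, by amounts that did not pass, while with equal totals the groups overlapped for each of them. Fdps (ENSMUSG00000059743.12, chromosome 3, 89093588 to 89101959, minus strand) makes farnesyl diphosphate, the branch point between sterols and prenylation. It was the most abundant member, at 26.5 and 30.2 FPKM in deficient libraries, against 36.0, 34.0 and 32.8 FPKM in sufficient ones, a limma estimate of -0.27 ± 0.11 (SE) for the log2 fold change (adjusted p = 0.256). Fdft1 (ENSMUSG00000021273.10, chromosome 14, 63145150 to 63179578, minus strand) joins farnesyl units into squalene. It measured 9.21 and 10.5 FPKM in deficient cells, against 12.3, 10.7 and 12.2 FPKM in sufficient cells, where the gap between deficient library 2+4 and sufficient library 2 was small. Single columns of Fdft1 overlapped, at 8.46 to 11.7 FPKM in deficient and 10.7 to 12.6 FPKM in sufficient cells. For Fdft1 limma estimated the log2 fold change at -0.23 ± 0.12 (SE, adjusted p = 0.393), and at -0.16 with averages weighted by depth. Sqle (ENSMUSG00000022351.14, chromosome 15, 59315077 to 59331192, plus strand), the oxygen-dependent squalene epoxidase, was at 7.33 and 7.26 FPKM against 8.70, 9.28 and 9.08 FPKM. The deficient libraries nearly coincided, and limma estimated the log2 fold change at -0.27 ± 0.11 (SE, adjusted p = 0.269). For both Fdps and Sqle an exact permutation test (two-sided) had p = 0.1, the smallest possible.

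Cyp51 (ENSMUSG00000001467.5, chromosome 5, 4081145 to 4104746, minus strand), which demethylates lanosterol, measured 7.44 and 9.43 FPKM in deficient libraries and 9.09, 12.6 and 8.44 FPKM in sufficient ones. The groups overlapped, and sufficient library 2 stood above the rest, as it did for Insig1. The log2 fold change of Cyp51 was -0.22 with a 95% interval of -0.66 to 0.23 (limma adjusted p = 0.597). It was -0.06 without sufficient library 2 and -0.07 without deficient library 1+3. Transcripts of other annotated genes at least 300 bases long in the alignment and 90% identical exist for Fdps (6 genes), Idi1 (4), Fdft1 (2) and Hmgcs1 (1), mostly processed pseudogenes, so the levels of these 4 members are uncertain to the extent that reads were shared. Among them, Gm43738 for Fdps, Gm48574 for Idi1, Ctsb for Fdft1 and Gm48342 for Hmgcs1 are the overlapping genes named above and not copies elsewhere. Hmgcs1 had no pseudogene among its matches. No such transcript was found for Sqle, Lss, Cyp51 or Insig1.

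**Figure D2:**
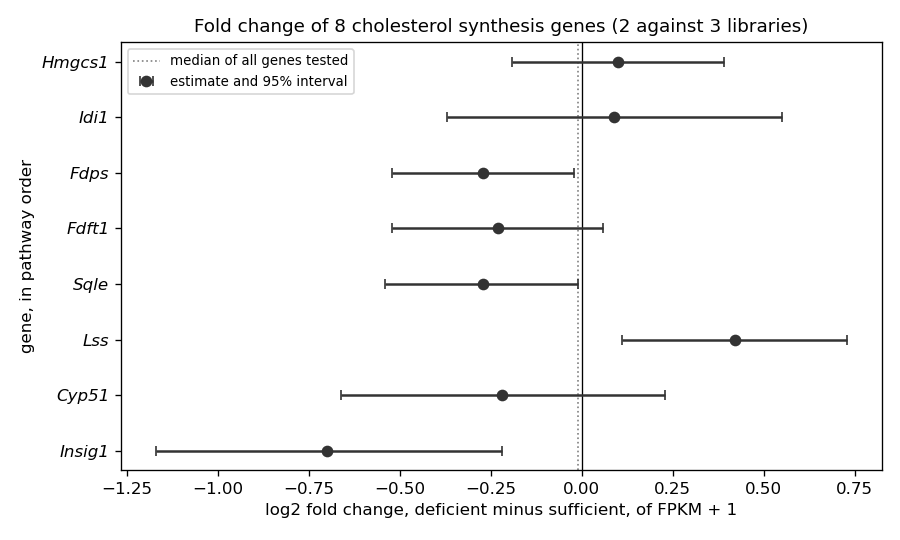
Log2 fold change of FPKM + 1, deficient minus sufficient (horizontal axis), of each gene in pathway order with Insig1 last; points are limma estimates from 2 against 3 libraries and bars their 95% intervals, not adjusted for the number of genes. The intervals of Fdps, Sqle, Lss and Insig1 leave out 0, yet 0 of the 8 genes pass after adjustment over all genes; the dotted line is the median of all genes tested, -0.01.

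FPKM is per length, so the levels can be set in order. In deficient libraries the means ran Fdps (28.3 FPKM), Insig1 (15.1), Hmgcs1 (13.9), Fdft1 (9.86), Cyp51 (8.43), Lss (7.48), Sqle (7.29) and Idi1 (2.84). Insig1 and Hmgcs1 changed places between these libraries, and the ranges of Fdft1 and Cyp51, of Cyp51 and Lss, and of Lss and Sqle overlapped. In sufficient libraries they ran Fdps (34.3 FPKM), Insig1 (25.4), Hmgcs1 (12.8), Fdft1 (11.7), Cyp51 (10.1), Sqle (9.02), Lss (5.33) and Idi1 (2.61), where the range of Cyp51 overlapped those of Hmgcs1, Fdft1 and Sqle. Insig1 stood clear of Hmgcs1 in every sufficient library. Across the 5 libraries Insig1 varied most among the members, over a range of 1.18 on the log2(FPKM + 1) scale, and Hmgcs1 least, over 0.28. The summed level of the 8 genes was 90 and 96.5 FPKM in deficient libraries and 112, 118 and 104 FPKM in sufficient ones. As a share of all FPKM of a library the sum overlapped, at 0.0189% and 0.0196% in deficient against 0.0198%, 0.0233% and 0.0169% in sufficient libraries.

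Ratios between neighbouring enzymes within a library do not depend on how libraries are scaled. Lss over Sqle was 1.04 and 1.01 in deficient libraries and 0.556, 0.628 and 0.587 in sufficient libraries. In the single columns it was 1.0, 0.965, 1.08 and 1.06 in deficient replicates 1 to 4 and 0.492, 0.628, 0.627 and 0.587 in sufficient replicates 1 to 4. No deficient column overlapped a sufficient one, but near-identical columns are not separate samples, so the columns add no replicates to the libraries. Cyp51 over Lss was 0.974 and 1.29 in deficient libraries and 1.88, 2.17 and 1.58 in sufficient libraries. These ratios share Lss. Fdps over Idi1 also did not overlap, at 10.9 and 9.33 against 11.8, 16.6 and 12.1. The other 3 of the 6 ratios overlapped, with Fdft1 over Fdps at 0.348 ± 0.000866 (SD, n = 2) in deficient and 0.342 ± 0.0293 (SD, n = 3) in sufficient libraries. No test was made on the ratios, and the share over other gene pairs was not counted. Of single genes tested, 36.7% did not overlap as deposited, so 3 of 6 is not read as a result about the route.

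**Figure D3:**
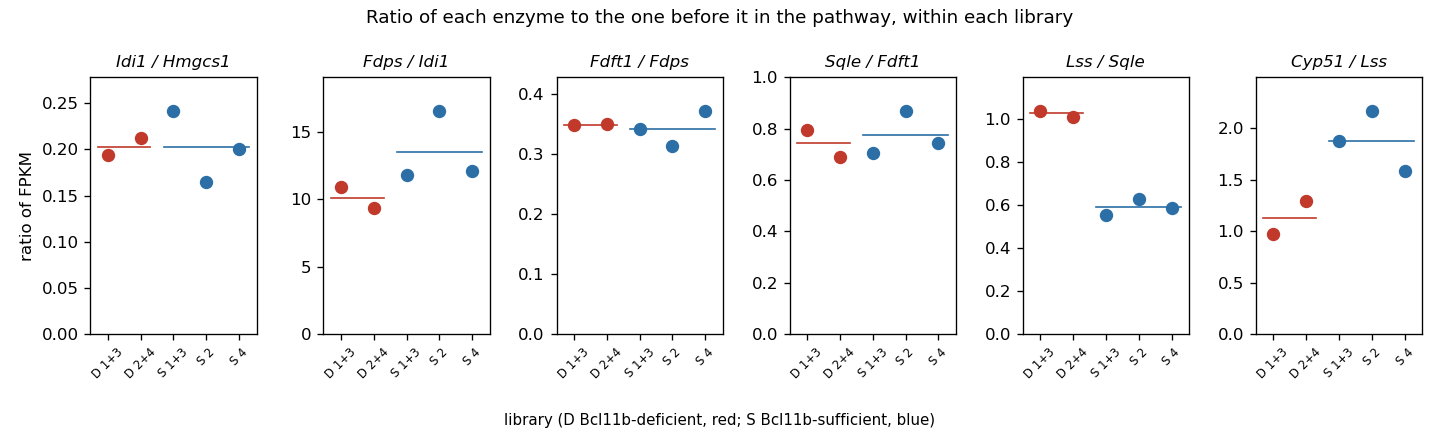
Ratio of the FPKM of each enzyme to that of the member before it in the pathway (vertical axes, from 0) in the 2 deficient (D, red) and 3 sufficient (S, blue) libraries; lines are group means. Lss over Sqle is 1.01 to 1.04 in deficient libraries and 0.556 to 0.628 in sufficient ones, Cyp51 over Lss and Fdps over Idi1 are lower in deficient libraries, and the other 3 ratios overlap.

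The rest of the synthesis route also showed no call. Of 15 further enzymes listed, 14 were tested, with 0 called higher and 0 lower by limma, 0 at an unadjusted p under 0.05, and a median log2 fold change of -0.10 (range -0.30 to 0.13). Mvk, the mevalonate kinase, had a log2 fold change of -0.22, Tm7sf2, a sterol reductase, -0.30, Sc5d, a sterol desaturase, -0.20, and Mvd, the mevalonate diphosphate decarboxylase, -0.13; the adjusted p of these 4 ran from 0.40 to 0.572. Among 8 genes of SREBP control 0 were called and 0 had an unadjusted p under 0.05 (median 0.06, range -0.20 to 0.10). Srebf2, which encodes SREBP2, was at 65.2 and 53.5 FPKM in deficient libraries and 67.6, 68.0 and 65.1 FPKM in sufficient libraries (log2 fold change -0.18, limma adjusted p = 0.473). Srebf1, its relative of fatty acid synthesis, was at 28.9 and 22.5 against 27.5, 34.3 and 27.3 FPKM. Insig2, the paralogue of Insig1, was at 7.75 and 7.71 FPKM against 7.16, 6.78 and 7.98 FPKM. As deposited its groups thus overlapped where those of Insig1 did not, while with equal totals those of Insig1 overlapped. The difference between the paralogues was not tested. Scap had a log2 fold change of -0.09 and the protease gene Mbtps1 0.10.

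Sterol uptake and transport held the calls of the pathway. Of 14 genes listed, 12 were tested, and 2 were called higher and 0 lower (median log2 fold change 0.15). Of all genes tested, 1.93% were called higher and 0.697% lower. At an unadjusted p under 0.05 there were 4 of the 12, against 17.8% of all genes. The groups did not overlap for 6 above and 1 below, against 18.9% and 17.9% of all genes. Gramd1a, which moves cholesterol from the plasma membrane to the endoplasmic reticulum, rose to 352 and 301 FPKM in deficient libraries, against 212, 206 and 185 FPKM in sufficient libraries (limma log2 fold change 0.70, SE 0.12, adjusted p = 0.0388). Every deficient library was above every sufficient one. Lrp1, a large endocytic receptor that macrophages also express, was at 6.66 and 3.31 FPKM in deficient libraries, against 0.0601, 0.801 and 0.521 FPKM in sufficient libraries, and was called higher (log2 fold change 2.01, limma adjusted p = 0.0319). Each sufficient value of Lrp1 lay under the filter of 1 FPKM. It was tested only through its deficient values, so the direction of its call is no independent support. The macrophage marker sum was 756 and 396 FPKM in the same deficient libraries. Lrp1 and Gramd1a were both higher in library 1+3 than in 2+4, as that sum was, and an order of 2 libraries does not tell genes apart. Neither call held without sufficient library 2 (adjusted p = 0.0774 for Gramd1a and 0.0584 for Lrp1), without sufficient library 4 (0.0877 and 0.0740), without sufficient library 1+3 (0.0874 and 0.0507) or without deficient library 1+3 (0.250 and 0.205) or 2+4 (0.131 and 0.0854). Without the single column sufficient replicate 3 that of Gramd1a ended too (0.0530). Both also ended with no filter on low values (0.0904 and 0.101), that of Gramd1a with a filter at 5 FPKM (0.0542), no mean-variance trend (0.0519) or the replicate block (0.0582), and that of Lrp1 with a pseudocount of 0.1 (log2 fold change 3.42, adjusted p = 0.0815). Gramd1b, a relative of Gramd1a, was not called, at 34.3 and 34.8 FPKM in deficient libraries and 20.2, 31.4 and 19.5 FPKM in sufficient libraries (limma log2 fold change 0.56, SE 0.20, adjusted p = 0.218). Its deficient libraries also lay above the sufficient ones, of which library 2 was the nearest. Mylip, a ubiquitin ligase induced by LXR, measured 23.5 and 22.2 FPKM against 17.9, 18.3 and 18.3 FPKM (log2 fold change 0.32, adjusted p = 0.163).

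Efflux genes under the sterol sensor LXR had 0 calls among 9 tested of 13, with 3 at an unadjusted p under 0.05 and a median log2 fold change of 0.21. Apoe, the lipoprotein gene abundant in macrophages, was at 233 and 54.0 FPKM in deficient libraries and 10.4, 22.9 and 24.1 FPKM in sufficient libraries (limma adjusted p = 0.0800). Nr1h3, which encodes LXR alpha, was at 6.87 and 3.31 FPKM against 0.869, 1.37 and 1.33 FPKM (adjusted p = 0.0507, and 0.0324 with equal totals). Abca1, the cholesterol exporter, was at 6.54 and 4.42 FPKM against 2.97, 2.84 and 3.04 FPKM (log2 fold change 0.70, adjusted p = 0.108). Apoe, Nr1h3 and Abca1 were all higher in deficient library 1+3 than in 2+4, as the macrophage marker sum was. Abcg1, another exporter, had that order too (27.7 and 22.9 FPKM), with a log2 fold change of -0.04. An order of 2 libraries does not tell genes apart, and the part of macrophages in these levels was not tested. Lpcat3, a phospholipid-remodelling enzyme, had 0.26.

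Lists that share intermediates or regulators with the route had 0 calls each. Protein prenylation genes, which use farnesyl and geranylgeranyl units, had 0 of 11 called and 1 at an unadjusted p under 0.05, with a median log2 fold change of -0.02. Rabggtb, a subunit of the Rab transferase, was at -0.26 (limma adjusted p = 0.229), the protease gene Rce1 at -0.27, the escort gene Chml at 0.29 and Pggt1b, a subunit of a geranylgeranyl transferase, at 0.23. Fatty acid synthesis genes had 0 of 9 tested called of 15 in the table, with 2 at an unadjusted p under 0.05 and a median of 0.12. Fasn, the fatty acid synthase, measured 42.6 and 40.7 FPKM in deficient libraries and 23.6, 31.9 and 24.1 FPKM in sufficient libraries (log2 fold change 0.64, SE 0.15, adjusted p = 0.0770). Elovl6, an elongase, measured 7.75 and 9.88 FPKM against 5.71, 4.10 and 4.23 FPKM (log2 fold change 0.79, SE 0.18, adjusted p = 0.0723). For both the deficient libraries lay above the sufficient ones, and Elovl6 passed with equal totals (0.98, adjusted p = 0.0362). Acaca, the acetyl-CoA carboxylase, had a log2 fold change of 0.28 and Elovl5, another elongase, -0.28. Genes of mTORC1 and AMPK signalling had 0 of 12 tested called and 1 at an unadjusted p under 0.05 (median 0.06); Mtor was at 0.35 (adjusted p = 0.264), Rictor at 0.41, Tsc1 at 0.21 and Prkag1 at -0.19.

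**Figure D4:**
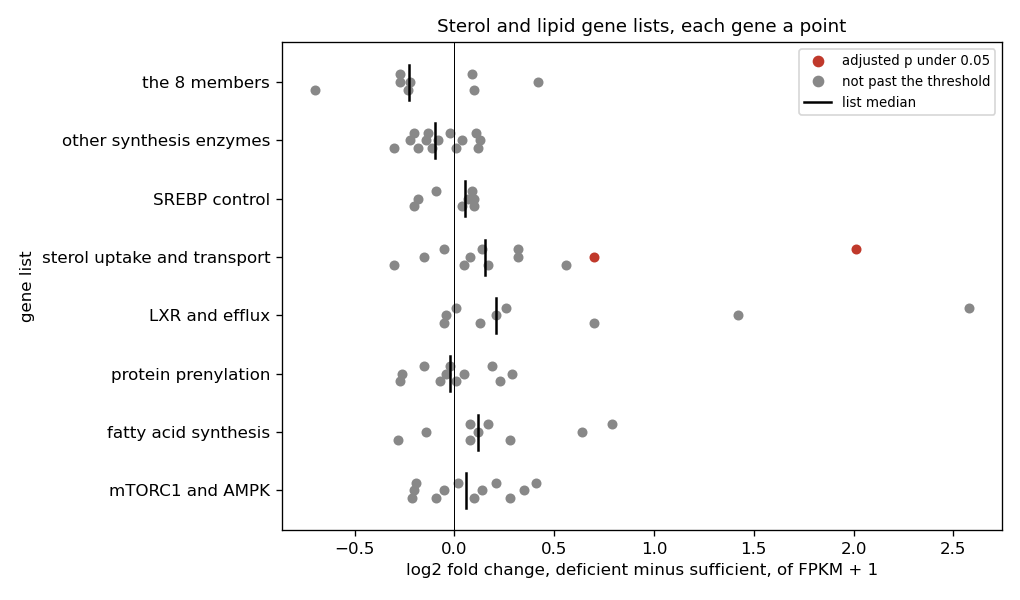
Log2 fold change of FPKM + 1, deficient minus sufficient (horizontal axis), of every tested gene of 8 lists (rows); red points passed an adjusted p of 0.05, grey points did not, and black bars are list medians. The 2 red points, at 0.70 and 2.01, are uptake and transport genes, while the 8 members spread from -0.70 to 0.42.

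The genes whose profile over the 5 libraries lay nearest to the mean profile of the members were Haus1, Actn4, Wac, Rab35 and Rabep1. Their root mean square distance was 0.013 to 0.021 on the centred log2(FPKM + 1) scale. The mean profile of the members was itself shallow, at -0.13 and -0.03 in deficient libraries and 0.06, 0.10 and 0.00 in sufficient libraries, so many genes with little variation lie close to it. This is a description of 5 libraries.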

How the data were processed

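Expression was measured by RNA sequencing. Per the labels' protocols, cells were sorted above 97% purity and stranded total RNA libraries were amplified with 15 PCR cycles. The submitters' processing notes name the mm10 build, the aligner STAR 2.5.1, Cuffdiff 2.2.1 and Cuffnorm 2.2.1, and the trimmers cutadapt 1.12 and Trim Galore 0.4.2, with no settings or annotation. The authors deposited FPKM for 23997 genes. The table has 16 value columns; 8 carry the title of a sample, and the 8 that do not were left out.

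Depth was estimated from the steps between FPKM values under 1, with an assumed fragment of 150 bases and 2172 genes of a single annotated transcript (GENCODE M21). It ran from about 2830000 to 12500000 fragments per column and is approximate; fragments behind a gene use its principal transcript. Near-identical columns (under 1.5 times the sampling noise) were averaged with equal weight. Genes averaging 1 FPKM or more were tested on log2(FPKM + 1), which understates the change of low genes, with limma 3.58.1 in R 4.3.3 (mean-variance trend, group only, two-sided). P-values were adjusted by the Benjamini-Hochberg method. The fit was tested on simulated data. Other transcripts like a member's were sought with blastn 2.17.0. Nothing was fitted as counts, since whole reads were not recovered.

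The members, gene lists and tests were chosen with earlier results of these data known. Named genes are the members, Bcl11b, 6 sterol genes always named, the 4 genes of each pathway list with the lowest adjusted p and all called ones, and 5 genes of nearest profile; marker genes serve as cell type checks. Some genes of the route and of sterol uptake are not reported here. Alternatives covered the pseudocount, filter, scaling, empirical Bayes settings, averaging, replicate block and each column or library left out.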

Additional observations from a re-analysis of the deposited data

How the results depend on the processing

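Of 22 alternatives, 20 called 0 members. The other 2 took the 8 columns as separate libraries: without a block 1 member was called higher and 1 lower (Lss 0.45, adjusted p = 0.0115; Insig1 -0.70, adjusted p = 0.0106; 1004 genes higher and 847 lower), and with the replicate block 1 and 1 (Lss 0.45, adjusted p = 0.0325; Insig1 -0.70, adjusted p = 0.0184; 776 and 642). On the independent libraries the replicate block called 204 genes higher, 79 lower and 0 members, and ended the call of Gramd1a (adjusted p = 0.0582); deviations of same-numbered columns correlated at 0.029, 0.057, 0.126 and 0.091 across genes, and not every column correlated best with its own number, so the numbers were not taken to pair samples. Genes called numbered 124 higher with a pseudocount of 0.1, 91 higher and 8 lower with no filter, 73 and 40 with a filter at 5 FPKM (where Idi1 has no value), and 341 and 30 with equal totals, against 205 and 74. Equal totals moved the members' median to -0.03 and turned log2 fold changes near 0: Srebf1 to 0, Srebf2 to 0.03, Scap to 0.12, Abcg1 to 0.17, Mvd to 0.06, Prkag1 to 0.02, Haus1 to 0.07, Actn4 to 0.10, Wac to 0.06, Rab35 to 0.07 and Rabep1 to 0.07. Quantile normalization turned Idi1 to -0.04. The cause of these turns beyond the shift of all genes was not tested. With a column or library left out, genes called ranged from 8 to 216 higher and 0 to 81 lower and the members' median from -0.29 to -0.10, Idi1 ran from -0.06 to 0.24, Hmgcs1 from -0.03 to 0.23, Cyp51 from -0.37 to -0.06, Scap from -0.23 to 0.05 and Abcg1 from -0.17 to 0.09. Where 1 deficient library remained, it was assumed to vary like the sufficient ones. Weighting averaged columns by depth, chosen after seeing the data, called 0 members. Bcl11b itself was called lower in the main fit (log2 fold change -0.95, limma adjusted p = 0.0238). That call ended with equal totals (0.0815), with no filter (0.0726) and without sufficient library 2 (0.0602) or 1+3 (0.0522), and held without library 4 (0.0462). Its log2 fold change was -1.13 without deficient library 1+3 and -0.78 without 2+4. Differences of the size seen in Fdps, Fdft1, Sqle and Cyp51 did not pass with 2 against 3 libraries, which does not show that these genes were equal.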
